A study of Mus musculus with 6 samples.

Results

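Small RNAs of bone marrow monocytes (BMMs) were sequenced to ask how a super-low dose of lipopolysaccharide (LPS), the outer membrane lipid of Gram-negative bacteria, altered their microRNAs (miRNAs). The cells came from wild-type C57BL/6 mice and were treated for 4 h with PBS (Control) or 5 pg/ml LPS, with 3 samples in each group. The labels do not say whether the 3 samples of a group came from separate mice or cultures, so p-values measure only the spread between samples, which may be technical. The miRNA genes described here are Mir185, Mir96, Mir33, Mir128-1 and Mir128-2, 5 of 1174 mouse miRNA hairpins searched. They were chosen because their miRNAs are known to repress Scarb1 or Abca1 and reads were summed for each arm of each hairpin. Of their 9 arms, 7 had reads, among 974 arms with reads in the whole series.

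A miRNA gene is transcribed as a hairpin that is cut into a short duplex, whose 5′ and 3′ strands are called the 5p and 3p arms. Bases 2 to 8 of the loaded strand, the seed, pair with the 3′-untranslated region (3′-UTR) of target messenger RNAs and lower their protein output. Scarb1 encodes SR-B1, the receptor that takes cholesterol ester from high-density lipoprotein and also moves free cholesterol across the membrane. Abca1 and Abcg1 encode the transporters that export cholesterol from macrophages. miR-185 and miR-96 are known as repressors of Scarb1, miR-33 of Abca1 and Abcg1, and miR-128 of Abca1.

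The hairpins lie at separate places in the genome (GRCm38). Mir33 (chr15:82198122-82198190, plus strand) lies in an intron of Srebf2, the gene of the transcription factor that drives cholesterol synthesis and uptake. Mir185 (chr16:18327401-18327465, minus strand) lies in an intron of Tango2. Mir128-1 (chr1:128202361-128202430, plus strand) lies in an intron of R3hdm1 and Mir128-2 (chr9:112118636-112118711, minus strand) in an intron of Arpp21. Mir96 (chr6:30169446-30169551, minus strand) overlaps no other annotated gene on that strand and is a neighbour of Mir182 and Mir183, which lie on the same strand.

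These 6 mature miRNAs of the members are shown with the seed in capitals, as RefSeq lists them for GRCm38, because the seed sets which 3′-UTRs they can pair with.
miR-33-5p: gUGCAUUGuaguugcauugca
miR-33-3p: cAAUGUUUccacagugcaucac
miR-128-3p: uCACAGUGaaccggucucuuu
miR-128-1-5p: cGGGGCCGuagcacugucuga
miR-185-3p: aGGGGCUGgcuuuccucuggu
miR-96-5p: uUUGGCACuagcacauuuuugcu
No seed was shared among these 6. The 5p arm of Mir128-2 has the same seed as miR-128-1-5p. Among 1679 mature mouse miRNAs, the seed of miR-96-5p was also that of miR-1271-5p, and the seed of miR-185-3p was also that of miR-7048-5p. The 3p arms of Mir128-1 and Mir128-2 give the same miR-128-3p, so their reads were counted together. The seed of miR-27b-3p, another miRNA known to target Abca1, is that of miR-128-3p moved by a single base.
miR-27b-3p: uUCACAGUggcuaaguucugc

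The libraries held 2201520 to 17691405 reads, of which 61.6% to 71.0% matched a hairpin, and levels are given in RPM, the reads of an arm in 1000000 hairpin reads. The 3 myeloid marker arms were abundant in the 6 libraries, with miR-223-3p at 5607 to 6089, miR-142-3p at 3741 to 7757 and miR-142-5p at 18107 to 27085. Of the erythroid markers, miR-144-3p had no reads, miR-451a had 7 in all, and miR-486-5p was at 609 to 1030. LPS replicate 2 stood apart from the other 5 libraries. It was the deepest, and sequences with a single read were 18.7% of its different sequences but 67.1% to 74.7% elsewhere. In it, 23 of the 319 arms tested were at 2 or more times the highest level of the other 5 libraries (7.21%), while the same count was 0 or 1 in each other library. Fold changes are therefore given with and without it.

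The members ranged in BMMs from miR-128-3p, the most abundant, to miR-96-5p at the floor of detection. None of the 6 member arms that could be tested passed the threshold for a difference between LPS and Control (adjusted p = 0.994 for each, edgeR quasi-likelihood test with Benjamini-Hochberg adjustment over 319 arms). Across all 319 arms the same test called 0 higher and 0 lower (0%), with 7 higher and 1 lower at an unadjusted p under 0.05. At that unadjusted level DESeq2 gave 4 higher and 0 lower, and limma-voom 4 higher and 1 lower. The levels of the groups overlapped in all 6 arms. Over all arms, LPS lay wholly above Control in 1.88% and wholly below in 1.25%.

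**Figure D1:**
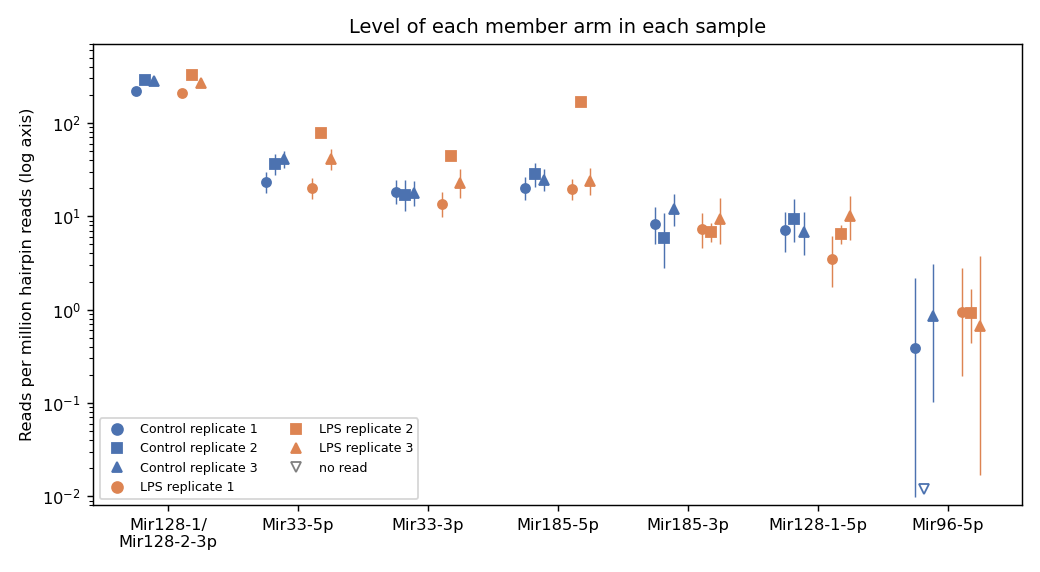
Level of each member arm in each sample, in RPM on a log axis. Bars are 95% exact binomial intervals that cover counting error only, and an open triangle marks a sample with no read. LPS replicate 2 (orange square) lies above the other 5 samples for miR-185-5p, at 169 against 19.6 to 28.0, and for both arms of Mir33.

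miR-185-5p, the arm known to repress SR-B1, was the member with the widest spread between samples. It was at 19.9, 28.0 and 24.5 RPM in Control replicates 1, 2 and 3, and at 19.6, 169 and 24.02 in LPS replicates 1, 2 and 3. The counts behind these levels were 51, 48 and 58 reads in the Control libraries and 62, 1849 and 36 in the LPS libraries. LPS replicates 1 and 3 lay below the top of the Control range, and LPS replicate 2 was 6.04 times the highest of the other 5. The log2 fold change of LPS over Control was 1.56 (standard error 0.84) with all samples. Without LPS replicate 2 it was -0.20 (standard error 0.24), so its direction rested on that library. With the replicate number as a block it was 0.86 (standard error 0.64). A fit without the low-count filter gave an adjusted p of 2.66e-05 (edgeR quasi-likelihood test) for a log2 fold change of 1.58 (standard error 0.31). That fit called 21 of 974 arms higher and 0 lower. The DESeq2 test gave 1.55, with an unadjusted p of 0.032 and an adjusted p of 0.999. The limma-voom test gave 1.19, with an unadjusted p of 0.255 and an adjusted p of 0.985. By the ratio of LPS replicate 2 to the highest other library, miR-185-5p ranked 8 of 319 arms and was the single member arm among the 23 past a ratio of 2, a limit chosen after the values were seen.

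The 3p arm of the same hairpin was not high in that library. miR-185-3p was at 8.21, 5.83 and 11.8 RPM in Control and at 7.26, 6.77 and 9.34 in LPS. LPS replicate 2 lay inside the range of the other 5 libraries, on 74 reads. The log2 fold change was -0.21 (standard error 0.30), and -0.15 (standard error 0.37) without LPS replicate 2. The 5p arm therefore made up 96.2% of the Mir185 reads of LPS replicate 2 (95% exact binomial interval 95.2% to 97.0%), or 25.0 reads of 5p for each of 3p. In the other 5 libraries the 5p share was 67.4% to 82.8%, or 2.07 to 4.80 reads for each. Over the groups the share was 73.7% ± 8.04 in Control and 80.4% ± 13.7 in LPS (SD, n = 3 each; exact permutation test, two-sided, p = 0.5, and 0.6 after adjustment over 2 hairpins; 3 samples against 3 allow no p below 0.1).

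Both arms of Mir33, whose hairpin lies in the gene of SREBP-2, were also highest in LPS replicate 2, by a smaller ratio. miR-33-5p, the arm known to repress Abca1, was at 23.1, 36.2 and 41.0 RPM in Control and at 19.9, 78.0 and 40.7 in LPS. miR-33-3p was at 18.4, 16.9 and 17.8 in Control and at 13.6, 44.2 and 22.7 in LPS. LPS replicate 2 was at 1.90 times the highest other for 5p and 1.95 times for 3p, and LPS replicate 1 was the lowest library for both. The log2 fold change was 0.46 (standard error 0.49) for miR-33-5p and 0.59 (standard error 0.43) for miR-33-3p. Without LPS replicate 2 these were -0.23 (standard error 0.34) and -0.06 (standard error 0.28). With the replicate number as a block they were 0.29 (standard error 0.32) and 0.43 (standard error 0.40). In contrast to Mir185, the balance of the arms in LPS replicate 2 lay within the other libraries, with 63.8% of the Mir33 reads from 5p (61.2% to 66.4%) against 55.7% to 69.8%. The 5p share was 64.5% ± 7.72 in Control and 62.5% ± 2.65 in LPS (SD, n = 3 each; exact permutation test, two-sided, p = 0.6).

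miR-128-3p, which is known to repress Abca1, was the most abundant member, ranked 99 by mean level among all arms. It was at 221, 288 and 278 RPM in Control and at 210, 324 and 266 in LPS. The samples of each group ran through the range of the other, and LPS replicate 2 was 1.12 times the highest other library. The log2 fold change was -0.0035 (standard error 0.20), the narrowest estimate of the members, and -0.19 (standard error 0.16) without LPS replicate 2. miR-128-1-5p was at 7.04, 9.34 and 6.76 in Control and at 3.47, 6.41 and 10.01 in LPS, on 11 to 70 reads. Its log2 fold change was -0.30 (standard error 0.39), and -0.38 (standard error 0.48) without LPS replicate 2. The 5p arm of Mir128-2 had 0 reads in the 6 libraries, which allows at most 0.27 to 2.00 RPM at a floor of 3 reads.

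**Figure D2:**
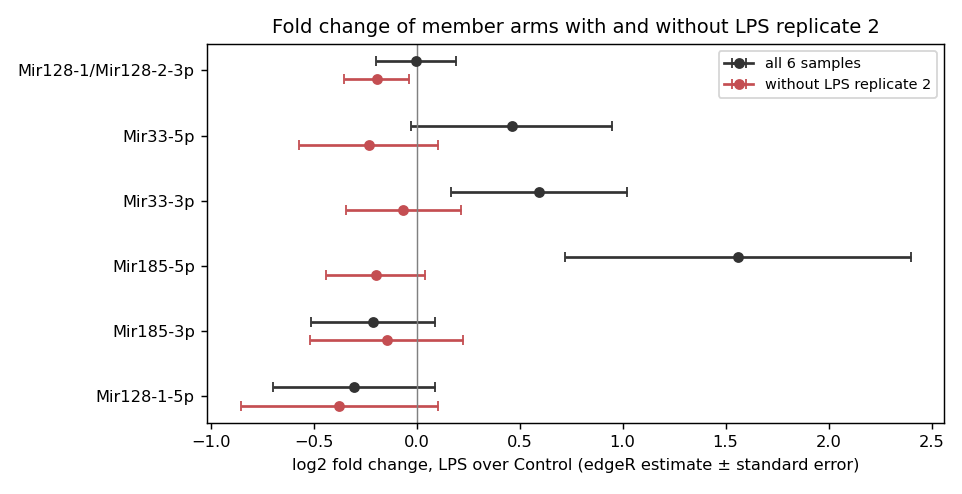
Fitted log2 fold change of LPS over Control for the 6 member arms tested, with its standard error, from all 6 samples (black) and without LPS replicate 2 (red). miR-185-5p moved from 1.56 to -0.20 and both Mir33 arms moved from above 0 to below it.

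The reads of miR-128-3p can come from either of its 2 hairpins. Past the stretch the 2 hairpins share, the next base is T in Mir128-1 and C in Mir128-2. Among the 117 to 1037 reads per library that ran past this stretch, the base was T in 32.2% to 38.5% and C in 0% to 1.44%. It was A in 56.1% to 65.0%, a base that neither hairpin has there. A base added after cutting can also be T or C, so these shares do not divide the reads between the hairpins.

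miR-96-5p, known to target Scarb1, was at the floor of detection. It had 1, 0 and 2 reads in Control and 3, 10 and 1 in LPS, or at most 0.95 RPM, and the 0 of Control replicate 2 allows up to 1.75. It was too low to be tested in the fit, and an exact permutation test of its levels gave p = 0.2 (two-sided, 0.98 after adjustment over 7 member arms). miR-96-3p had 0 reads in the 6 libraries. Its neighbour miR-182-5p, from the hairpin at chr6:30165918-30165992, was far above it, at 172 to 317 in the 5 other libraries and 248 in LPS replicate 2. miR-182-5p differs from miR-96-5p in the last base of the seed.
miR-182-5p: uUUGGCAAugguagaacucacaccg
miR-183-5p, from chr6:30169668-30169737, was at 10.7 to 29.8 in the 5 other libraries and 20.7 in LPS replicate 2. The log2 fold changes of miR-182-5p and miR-183-5p were -0.13 (standard error 0.25) and -0.11 (standard error 0.43), and -0.24 and -0.28 without LPS replicate 2. LPS replicate 2 lay within the range of the other libraries for miR-96-5p and for the 5p arms of its neighbours, while miR-183-3p was at 3.66 there against at most 1.17.

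The levels of the members spanned a wide range. In Control, miR-128-3p was at 262 ± 36.0 RPM (SD, n = 3), and its lowest library lay above the highest of any other member. miR-33-5p at 33.4 ± 9.28 and miR-185-5p at 24.2 ± 4.04 overlapped. miR-33-3p, at 17.68 ± 0.73, lay below every Control library of both. miR-185-3p at 8.63 ± 3.02 and miR-128-1-5p at 7.71 ± 1.41 overlapped, and miR-96-5p, at 0.41 ± 0.42, was lowest. In LPS the means were 267 ± 57.1 for miR-128-3p, 46.2 ± 29.4 for miR-33-5p, 70.9 ± 85.1 for miR-185-5p and 26.8 ± 15.7 for miR-33-3p, and the ranges of the last 3 overlapped. Reads of different miRNAs also differ in how well each is ligated, so this is an order of reads in these libraries.

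**Figure D3:**
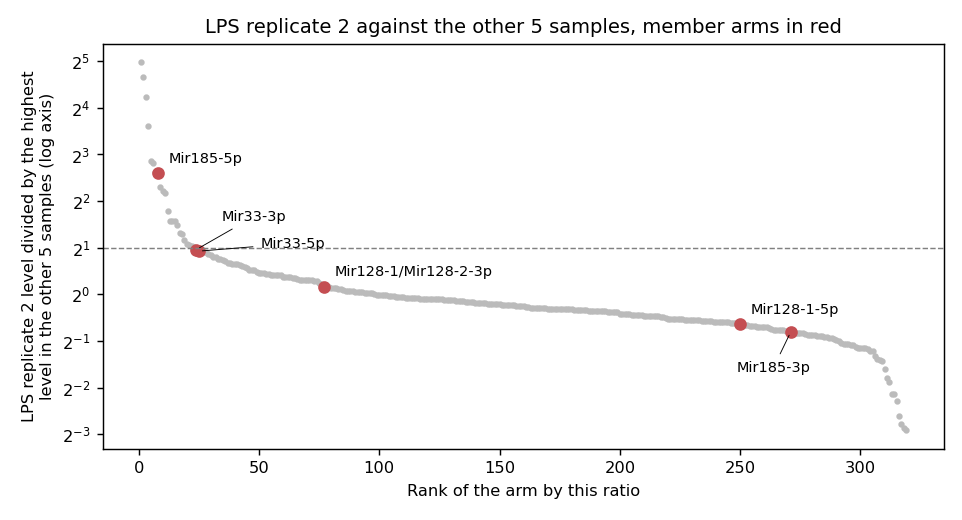
Level in LPS replicate 2 divided by the highest level in the other 5 samples, on a log axis, for the 319 arms tested in order of that ratio, with the 6 member arms in red and a dashed line at a ratio of 2. miR-185-5p stands at rank 8 with a ratio of 6.04, the Mir33 arms lie just under the line at 1.95 and 1.90, and miR-185-3p and miR-128-1-5p lie below 1.

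Some markers of other cell types were higher in LPS replicate 2 and others were not. The list held 18 marker arms for erythroid, lymphoid, epithelial, mesenchymal, neuronal, muscle and liver cells. Among them, 4 were at 2 or more times the highest other library, and 4 others had no reads in any library. Of the first 4, miR-200a-3p and miR-150-5p were among the tested arms, of which 7.21% reached this ratio. miR-200c-3p and miR-122-5p did not pass the low-count filter, so that share does not cover them. The 18 arms summed to 839 in LPS replicate 2, 914 to 1135 in Control, and 1118 and 916 in LPS replicates 1 and 3, and most of each sum was miR-486-5p. The 15 arms that are not erythroid summed to 230.0 in LPS replicate 2, 105 to 132 in Control, and 110 and 120 in LPS replicates 1 and 3. The 5 epithelial arms summed to 168 in LPS replicate 2 against 76.7 to 96.4 in the other 5. Of these, miR-200a-3p was at 43.7 against at most 12.7, miR-200c-3p at 29.6 against at most 4.08 and miR-200b-3p at 57.9 against at most 43.4. miR-141-3p and miR-429-3p were not high there, at 20.6 against at most 37.9 and 15.9 against at most 20.7. The lymphoid miR-150-5p was at 49.2 against at most 23.2, and the hepatocyte miR-122-5p at 1.83 against at most 0.42. The 4 mesenchymal arms summed to 10.6 in LPS replicate 2 and 6.00 to 11.99 elsewhere. The neuronal miR-124-3p and the muscle miR-1a-3p were at 0, while miR-9-5p was at 0.37 against 2.11 to 3.34 elsewhere and miR-133a-3p had 4 reads in all. Whether cells of these types were present, and their part in the level of miR-185-5p, was not tested. In such bulk samples, a different number of cells of a type and a different amount of RNA per cell cannot be told apart.

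The reads of miR-185-5p also differed in length. In LPS replicate 2, 28.8% of its reads were 21 nt long (26.8% to 31.0%, exact binomial interval) and 37.6% were 22 nt long. In the other 5 libraries, 3.45% to 13.7% were 21 nt and 50.0% to 64.7% were 22 nt, on 36 to 62 reads each. The most read sequence of an arm was taken as the one with the largest mean share over the 6 libraries. For miR-185-5p it was 22 nt long and held 58.8%, 54.2% and 53.4% of the reads in Control and 45.2%, 35.9% and 41.7% in LPS. LPS lay wholly below Control, as in 3.13% of the 319 arms. The difference was -14.6 percentage points (exact permutation test, two-sided, p = 0.1, the smallest possible here, and 0.2 after adjustment over 6 member arms), and -12.1 points without LPS replicate 2. With reads that match the hairpin in full, the groups overlapped, at -10.1 points (exact permutation test, two-sided, p = 0.3). The exact binomial intervals of the 5 shallow libraries overlapped.

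For miR-33-3p and miR-128-1-5p the sequence followed in this way took a larger share of the arm in every LPS library than in any Control library, as in 5.02% of all arms. It held 40.4%, 31.0% and 40.5% of miR-33-3p in Control and 41.9%, 49.3% and 44.1% in LPS (exact permutation p = 0.1, two-sided, and 0.2 adjusted). With reads that match the hairpin in full, this difference turned from 7.77 to -0.43 points (exact permutation p = 1). For miR-128-1-5p the sequence with the largest mean share was a 23-nt form with 57 reads in all, while a 21-nt form had 61. The 23-nt form held 33.3%, 6.25% and 25.0% of the arm in Control and 45.5%, 44.3% and 66.7% in LPS, on 11 to 18 reads in 5 of the libraries (exact permutation p = 0.1, two-sided, and 0.2 adjusted). The 21-nt form held 16.7%, 50.0% and 31.2% in Control and 36.4%, 52.9% and 26.7% in LPS, so its groups overlapped (exact permutation p = 0.7). Neither passed the threshold. For miR-33-5p the same share was 25.4% to 46.8% in the 5 other libraries and 64.8% (61.5% to 68.0%) in LPS replicate 2, and its most read sequence was the RefSeq form.

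The arms of Mir33 were read in forms that differ at the 3′ end, shown here because the RefSeq form of miR-33-3p was not among the reads of any library. Letters in capitals do not match the hairpin.
miR-33-3p, 19 nt, 316 reads in all: caatgtttccacagtgcat
miR-33-3p, 22 nt, 290 reads in all: caatgtttccacagtgcatcaT
miR-33-5p, 21 nt, 675 reads in all: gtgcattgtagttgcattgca
miR-33-5p, 20 nt, 246 reads in all: gtgcattgtagttgcattgc
The first pair made up 46.6% and 42.8% of miR-33-3p over all libraries. The 22-nt form carries an unmatched T as its last base, and bases that do not match the hairpin ended 49.5% ± 7.89 of miR-33-3p reads in Control and 38.0% ± 6.12 in LPS (SD, n = 3 each). For miR-33-5p such ends were rarer, at 6.53% ± 3.48 in Control and 6.59% ± 1.54 in LPS. Most reads of each Mir33 form shown came from LPS replicate 2, with 238 and 215 for miR-33-3p and 552 and 154 for miR-33-5p. A 19-nt form of miR-33-5p had 182 reads in all, 87 of them in that library. In LPS replicate 1 it had 23 reads, against 16 for the 21-nt form and 16 for the 20-nt form. The seed was kept in nearly all reads of both arms, with 93.7% to 100% of reads starting at the commonest 5′ base. miR-185-3p varied more, with 50.0% to 85.7% at its commonest start, and 23 of its 170 reads began a base earlier in the 22-nt form.
miR-185-3p, 20 nt, 41 reads in all: aggggctggctttcctctgg
miR-185-3p, 22 nt, 23 reads in all: caggggctggctttcctctggt
A start moved by a base moves the seed by a base, so these forms of miR-185-3p have different seeds.

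**Figure D4:**
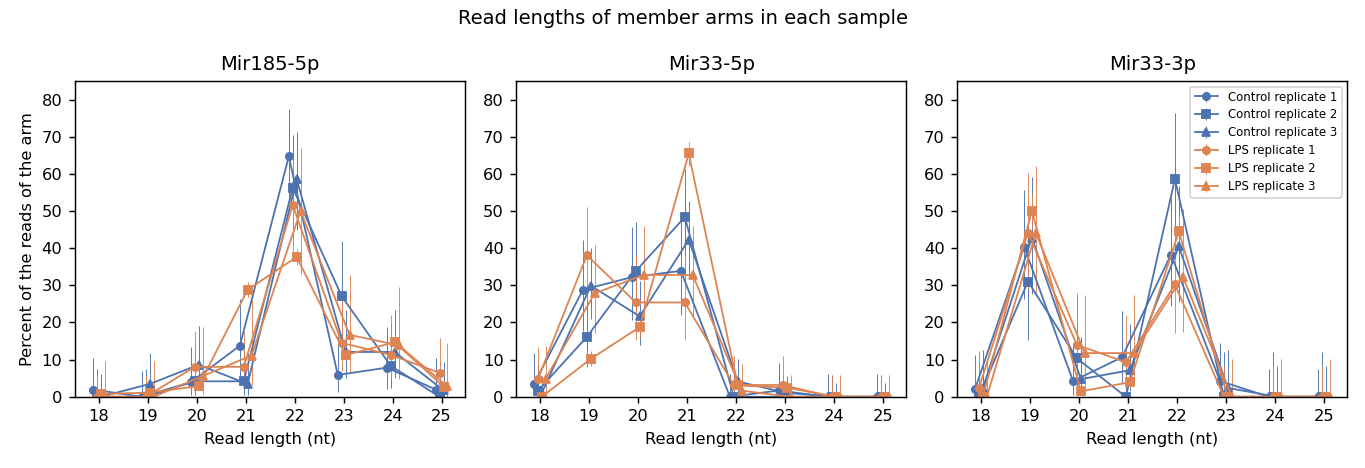
Percent of the reads of miR-185-5p, miR-33-5p and miR-33-3p at each length from 18 to 25 nt in each sample, with 95% exact binomial intervals. LPS replicate 2 (orange squares) is higher than the other 5 samples at 21 nt for miR-185-5p (28.8%) and miR-33-5p (65.5%), and miR-33-3p has peaks at 19 and 22 nt in every sample.

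Matches to the seeds of the 6 miRNAs shown first, and of miR-27b-3p, were searched in the 3′-UTRs of Scarb1, Abca1 and Abcg1, along the messenger strand, as 7 letters opposite seed bases 2 to 8, or 6 letters opposite bases 2 to 7 followed by A. They describe letters in the annotated GENCODE 3′-UTR and are not measured binding sites. For miR-33-5p (CAATGCA, or AATGCAA), Abca1 held 3 matches in 3156 bases and Abcg1 held 3 in 3703 bases. As many were found in 0.995% and 1.6% of stretches of the same length from the 3′-UTRs of other genes, and at least 1 in 34.2% and 38.2%. Each was taken from the start of a 3′-UTR at least that long, in 2512 and 1754 genes. The matches in Abca1 lie within 23 bases of each other, and the first pair overlap. These stretches are shown with the matched letters in capitals.
Abca1 (chr4:53033784-53033810, minus strand): ttCAATGCAATGCActtCAATGCAAcg
Abcg1 (chr17:31115000-31115020, plus strand): cgCAATGCAAcgCAATGCAga
Scarb1 (779 bases) held no match to miR-33-5p.

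miR-96-5p (GTGCCAA, or TGCCAAA) had 1 match in each of the 3 3′-UTRs. Of 11838 other genes with a 3′-UTR at least as long as that of Scarb1, 10.6% held at least 1 in its first 779 bases. miR-185-3p (CAGCCCC, or AGCCCCA) had 1 match in Scarb1 (14.6% of other genes with a 3′-UTR at least as long) and 0 in Abca1 and Abcg1. Matches to miR-185-5p were not searched. The matches in Scarb1, the gene of SR-B1, are shown.
Scarb1, miR-96-5p (chr5:125277427-125277433, minus strand): gcatatgtcggcctcttGTGCCAAgg
Scarb1, miR-185-3p (chr5:125277572-125277578, minus strand): ggaactctagctgctgtCAGCCCCtc
miR-128-3p (CACTGTG, or ACTGTGA) had 2 matches in Abca1 (19.1% of other genes with a 3′-UTR at least as long had as many) and 0 in Scarb1 and Abcg1. The second match in Abca1 is also a match to miR-27b-3p (ACTGTGA, or CTGTGAA), which was present at far higher levels. The match to miR-128-3p is ACTGTGA at chr4:53031478-53031484, and the last A in capitals below belongs to the match to miR-27b-3p only.
Abca1, miR-128-3p and miR-27b-3p (chr4:53031477-53031484, minus strand): agtggaaaacttactaACTGTGAAta
miR-33-3p (AAACATT, or AACATTA) and miR-128-1-5p (CGGCCCC, or GGCCCCA) had 0 matches of this length in the 3 genes.

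**Figure D5:**
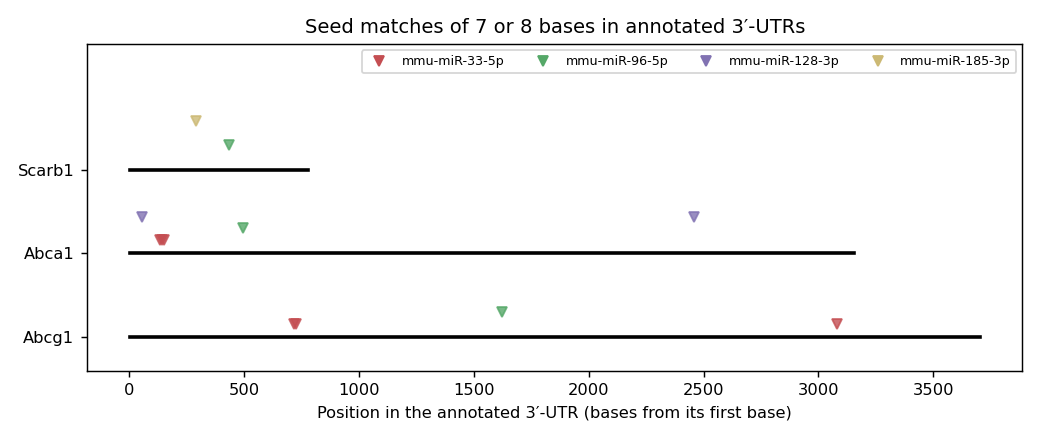
Matches of 7 or 8 bases to the seeds of miR-33-5p, miR-96-5p, miR-128-3p and miR-185-3p (triangles) along the annotated 3′-UTRs of Scarb1, Abca1 and Abcg1 (lines, in bases from the first base). miR-33-5p has 3 matches close together in Abca1 and a close pair in Abcg1 with another further on, and none in Scarb1. miR-185-5p was not searched.

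Other miRNAs described as repressors of Scarb1, Abca1, Abcg1 and other cholesterol genes ranged from no reads to the second most read arm of the series, and none of those tested passed the threshold. Of a list of 25 such arms, 21 had reads and 19 were tested, of which 0 were higher and 0 lower in LPS after adjustment, and 1 was higher at an unadjusted p under 0.05. Their median log2 fold change was -0.0079, against 0.0029 over all arms, with 9 of 19 above 0 and a range from -0.62 to 3.49. Without LPS replicate 2 the median was -0.04, against -0.03 over all arms, with a range from -0.79 to 0.17. miR-27b-3p was at 185815 ± 4990 RPM in Control and 165188 ± 33141 in LPS (SD, n = 3 each), and its log2 fold change was -0.20 (standard error 0.18), or -0.06 without LPS replicate 2. miR-26a-5p was at 23917 ± 2264 and 22905 ± 3340, and its log2 fold change was -0.09 (standard error 0.16), or 0.0062 without that library. miR-24-3p had the third highest mean only through LPS replicate 2, where it was at 57407 against 1505 to 2261 elsewhere, 25.4 times the highest other library. It had the single unadjusted p under 0.05, and its log2 fold change of 3.49 was 0.02 without that library. It was the single tested arm of this list at 2 or more times the highest other library.

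The arms most like each member were sought by the root mean square difference of log2 levels over the 6 samples, each centred on its own mean. miR-185-5p was closest to miR-324-5p (0.14), miR-186-3p (0.35) and miR-152-3p (0.38), which were at 6.19, 7.04 and 4.52 times the highest other library in LPS replicate 2. miR-33-5p was closest to miR-140-5p (0.13), miR-671-5p (0.20) and miR-150-5p (0.22), and miR-33-3p to let-7b-5p (0.15), miR-1981-5p (0.15) and miR-30b-5p (0.17). miR-140-5p and let-7b-5p were at 2.09 and 2.02 times the highest other library in LPS replicate 2. miR-128-3p was closest to miR-484-5p (0.07), miR-511-3p (0.10) and miR-126a-5p (0.11). miR-185-3p was closest to miR-25-3p (0.19), miR-1981-3p (0.19) and miR-1943-5p (0.20), and miR-128-1-5p to miR-25-5p (0.28), let-7c-5p (0.30) and miR-3963-5p (0.31). These are descriptions over 6 samples that share LPS replicate 2.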

How the data were processed

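Libraries were made with a TruSeq small RNA kit and sequenced by Illumina. The authors trimmed adaptors with perl scripts and Btrim64. The files the authors deposited give, for every different read left after trimming, its raw count, without miRNA names or normalization. The labels name mm9, and the labels and the methods differ in the medium (DMEM and RPMI). miRNA tables made with mirAnalyzer were not used here.

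Reads of at least 18 nt were matched to 1174 GENCODE M21 hairpins (GRCm38), with up to 3 unmatched 3′ bases. Arms were split at the hairpin midpoint, and arms that had 50% or more of their reads in common were merged. Coordinates come from GRCm38 only. Of 974 arms, filterByExpr kept 319, which were normalized by TMM and tested by edgeR 4.0.16 (R 4.3.3) in a quasi-likelihood fit of the group, adjusted by Benjamini-Hochberg, threshold 0.05. DESeq2 1.42.0, limma-voom 3.58.1, other scalings, filters and match rules, and each sample left out were alternatives. The matching and the fit were tested on simulated data. The counts simulated for the fit had less spread between samples than the real ones. Shares and levels were compared by exact permutation tests (scipy 1.17.1). Intervals are at 95% and, like the floor of 3 reads, cover counting error only. Libraries held 1498849 to 10927393 hairpin reads, so low arms of the shallow libraries were measured least precisely.

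Same-numbered Control and LPS samples deviated together from their group means (correlations over arms of 0.59, 0.26 and 0.28, against -0.38 to 0.15 for other pairs). The numbers may therefore pair the samples, but the labels do not say so. Deviations within a group offset each other, so these correlations are not independent. The main fit and the permutation tests were unpaired, and the paired fit was run as an alternative. The members, lists and rules were chosen with earlier results of these data known. Text names all member arms, the 3 most abundant of the cholesterol list and any past the threshold, Mir182 and Mir183, and the 3 arms most like each tested member arm. For the most read share, leaving samples out and following the sequence with most reads in all were added after seeing the data. Seed matches in a further gene that was planned are not reported here.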

Additional observations from a re-analysis of the deposited data

How the results depend on the processing

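Of 267 values under alternatives, 236 were classed as unchanged. For fold changes this meant the same direction and the same side of the threshold. For levels and shares it meant the same direction only, since their permutation tests could not pass the threshold. For counts of arms or of seed matches it meant an equal or similar count. Without the low-count filter, 21 arms of 974 were higher in LPS, of the cholesterol list 1, and miR-185-5p passed the threshold at a log2 fold change of 1.58; the cause was not tested. No other alternative called an arm, and the replicate block changed no call. The log2 fold change of miR-128-3p, close to 0, turned positive with library totals (0.023), no filter (0.012), 10 or more reads in every sample (0.017), reads of 20 nt or more (0.0039) and DESeq2 (0.015). Leaving out each sample in turn gave log2 fold changes of -0.20 to 2.01 for miR-185-5p, -0.23 to 0.82 for miR-33-5p, -0.064 to 0.91 for miR-33-3p, -0.19 to 0.12 for miR-128-3p and -0.39 to 0.044 for miR-185-3p. The lowest value of the first 4 came without LPS replicate 2. Differences in level (LPS minus Control, in RPM) ran from -2.36 to 72.5 for miR-185-5p, -3.13 to 25.9 for miR-33-5p, -24.6 to 32.6 for miR-128-3p, -2.23 to 0.77 for miR-185-3p and -2.77 to 0.49 for miR-128-1-5p. Differences in the share of the most read sequence, in percentage points, ran from -10.2 to 9.50 for miR-33-5p, -4.96 to 0.75 for miR-128-3p and -11.5 to 2.04 for miR-185-3p. With exact matches only, the difference for miR-33-3p was -0.43, since its 22-nt form, which has an unmatched base, was left out. Counting 6-base matches, the 3 3′-UTRs held 4 for miR-128-1-5p, 4 for miR-185-3p and 1 for miR-33-3p, against 0, 1 and 0. Depth limits the members: outside LPS replicate 2, no member arm but miR-128-3p had 100 reads in a library.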
